A study of Homo sapiens with 6 samples.

Results

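Ribosome biogenesis factors are the proteins that make, modify and assemble ribosomes without staying in the finished particle. The set described here holds 35 genes out of 20030 in the count table. The genes were chosen by name for their known role, with earlier results of these data known. They were grouped into 6 roles, and all 35 were found by symbol. They are 4 genes of the RNA polymerase I machinery, 4 of the box C/D and U3 ribonucleoproteins, 4 of the box H/ACA ribonucleoprotein, 3 nucleolar phosphoproteins, 11 factors of small subunit (40S) assembly and 9 of large subunit (60S) assembly. Each was compared between HepG2 cells with an shRNA against KIF11 (sh-KIF11) and HepG2 cells with a control shRNA (sh-ctrl).

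Ribosome production begins in the nucleolus, where RNA polymerase I transcribes one long precursor of the 18S, 5.8S and 28S ribosomal RNAs. Small nucleolar RNAs bound to proteins then guide the chemical modification of this precursor, box C/D particles adding methyl groups and box H/ACA particles converting uridine to pseudouridine. Large sets of assembly factors fold and cut the RNA as ribosomal proteins join, and the pre-40S and pre-60S particles mature separately before both reach the cytoplasm. Growing and dividing cells, hepatoma cells among them, spend much of their capacity on this pathway. Poly(A) libraries measure the mRNAs of the factors and not ribosomal RNA, so nothing below is a rate of ribosome production.

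HepG2 is an established human hepatoma line, and KIF11 is a mitotic kinesin that pushes spindle poles apart. Per the labels and the methods of the study, both groups consist of HepG2 cells with a short hairpin RNA, and the lentiviral vector for hairpins was pLKO.1. The knockdown group carries a hairpin against KIF11, and the control group carries a control hairpin, with 3 libraries each. The labels give 1 knockdown group and no second hairpin against KIF11. No source used here says whether the libraries of a group came from separate cultures, so p-values measure the spread between these libraries, which may be technical.

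The libraries held between 18318295 and 19583282 counts in sh-ctrl and between 18167773 and 19102804 in sh-KIF11. KIF11 itself had 1976, 2088 and 2039 counts in the control libraries against 1448, 1478 and 1240 in the knockdown libraries. The log2 fold change of KIF11 came to -0.75 (standard error 0.0573, edgeR adjusted p = 4.22e-15). All 10 hepatocyte and hepatoma markers of the labelled line were expressed, and 9 of 10 were lower in sh-KIF11, with summed levels of 32300 to 33900 CPM (counts scaled to library size with TMM) in sh-ctrl and 14400 to 15600 in sh-KIF11. Of 6 leukocyte markers 4 could be tested and all 4 were lower, with sums of 2490 to 2980 against 508 to 640 CPM that came mostly from LYZ, while PTPRC had at most 1 count in any library. Fibroblast markers summed to 2.55 to 3.93 CPM in sh-ctrl and 1.4 to 2.04 in sh-KIF11, with DCN at 0. Endothelial markers summed to 3.16 to 3.61 and 4.69 to 4.98 CPM, with CLEC4G at 0. The part of the hepatocyte markers in the results below was not tested. In bulk RNA, fewer cells of a kind and less RNA per cell cannot be told apart.

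All 35 factors passed the filter on low counts, with between 421 (UTP15, sh-ctrl replicate 3) and 33291 counts (NCL, sh-KIF11 replicate 2) in a library. In edgeR's quasi-likelihood test 25 of 35 had an adjusted p under 0.05, or 71.4%, where 69.1% of the 12369 tested genes did. Of the factors, 7 were higher in sh-KIF11 and 18 lower, or 20% and 51.4% of them. Over all tested genes 34.4% were higher and 34.7% lower. None of the factors changed by 2-fold or more, against 11.7% of all tested genes that did so and passed the test. Both groups of libraries were fully separate for 25 of the factors, 6 higher and 19 lower, beside 71.2% of all tested genes. The median log2 fold change was -0.16 over the factors (quartiles -0.31 and 0.031) and 0.004 over all tested genes. The share of genes called was thus near the background, the changes were small, and more of the factors were called lower than higher.

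That split rests on how the libraries are scaled. TMM factors were 0.9216 to 0.9259 in sh-ctrl and 1.08 to 1.086 in sh-KIF11, and scaling by library totals alone moved the median of all tested genes to 0.24. With totals alone 16 factors were higher and 4 lower, beside 6621 higher and 2373 lower of the 12369 tested genes. Limma on log2(FPKM + 1) gave 12 factors higher and 8 lower, beside 5635 and 2596 of all tested genes, whose median was 0.12. As a share of all counts, with no composition factor, the 35 genes took 0.675% ± 0.0166 of a control library and 0.722% ± 0.00911 of a knockdown library (SD over 3 libraries). NCL and NPM1 alone took 0.278% to 0.307% and 0.309% to 0.315% of the counts, and the counts of NPM1 are uncertain because of its pseudogenes. The median of the factors was below that of all tested genes by TMM (-0.16 against 0.004) and under every alternative run. Scaling by library totals or by upper quartiles shifts all genes nearly alike, so it could hardly change that distance. Unless another setting is named, the log2 fold changes of genes below are those by TMM. For 10 factors neither the direction nor the call depended on any of the 16 alternative settings. This count favours factors that were higher by TMM, since the scalings that moved values most moved them up. The median of all tested genes was also 0.083 with upper-quartile scaling and 0.17 by limma on log2(FPKM + 0.1). Across all 16 settings RRN3, WDR43, UTP15, RRP12, LTV1 and PNO1 were higher, and FBL, NHP2, BOP1 and MRTO4 were lower.

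**Figure D1:**
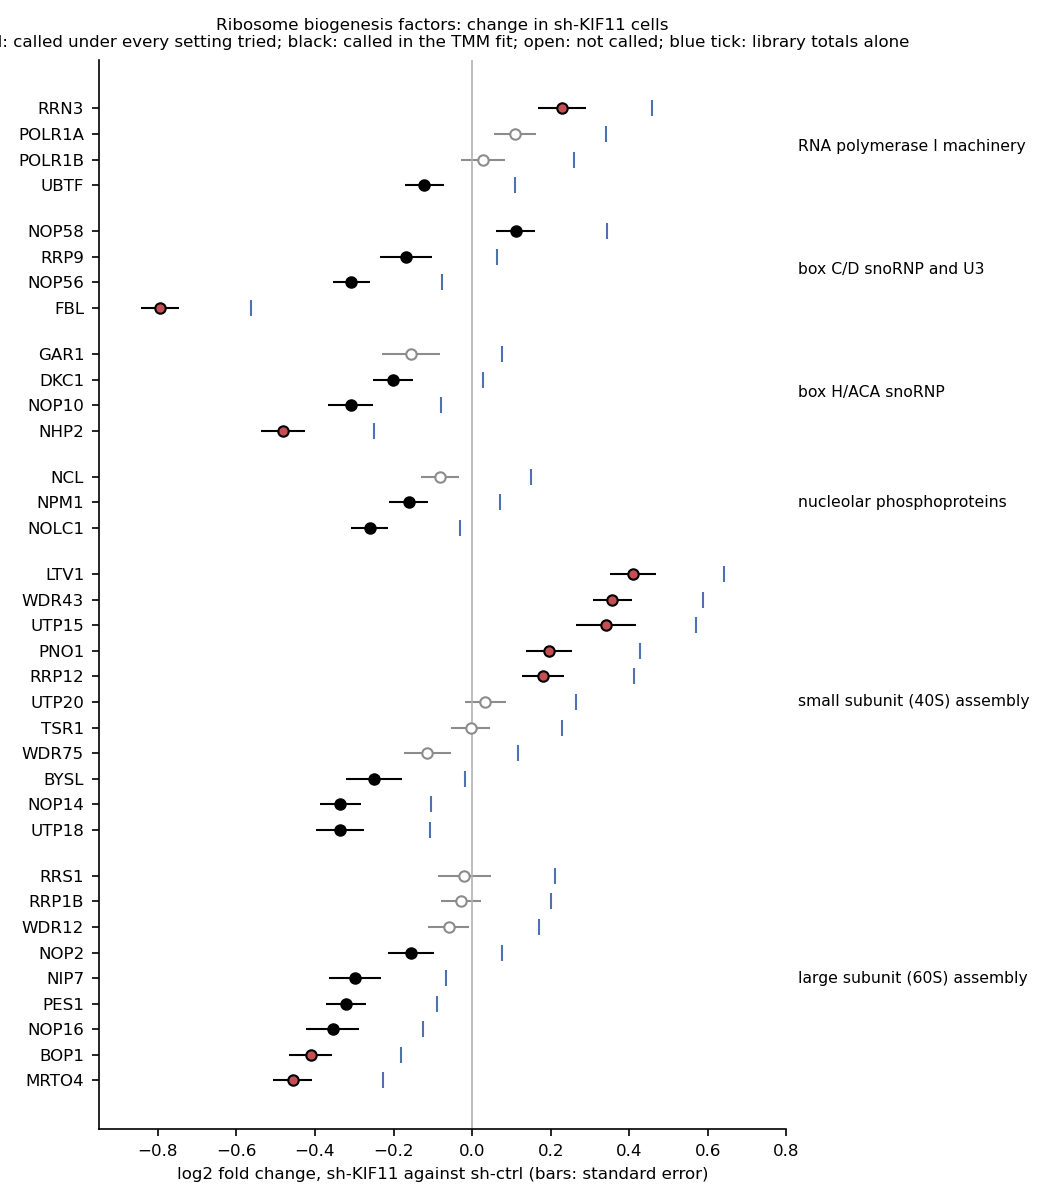
Log2 fold change of each of the 35 factors (x axis, sh-KIF11 against sh-ctrl, TMM scaling, bars are standard errors), grouped by role; red points were called under every setting tried, black points in the TMM fit, open points were not called, and blue ticks give the value with library totals alone. FBL sits lowest at -0.79 and LTV1 highest at 0.41, and the blue ticks lie to the right of all points, past 0 for several factors that are below 0 by TMM.

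Many promoters of these genes share a short sequence. RefSeq promoter entries (GRCh38.p14, 250 bases before to 50 after the transcription start) were found for 29 of the 35 genes, 34 entries in all. The palindrome CACGTG, the E-box hexamer bound by MYC and related factors, was present in 14 of the 34 entries (41.2%), in 9.43% of the 14186 entries of tested genes and in 7.26% of all 35116. The letters CCGGAAG, searched on both strands as the core bound by ETS family factors, were in 13 of the 34 entries (38.2%), beside 17.0% of the entries of tested genes and 10.3% of all. Neither motif contains the other. BOP1, NOLC1, NOP58, RRP12, RRP1B and RRS1 had no entry.

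The windows below show the hexamer, in capitals, in 4 genes that were lower and 2 that were higher in sh-KIF11, each read 5′ to 3′ along the strand of the gene with up to 30 bases on each side.
FBL (lower; chr19:39846350-39846403, minus strand): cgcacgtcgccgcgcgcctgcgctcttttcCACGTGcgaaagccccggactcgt
MRTO4 (lower; chr1:19251789-19251834, plus strand): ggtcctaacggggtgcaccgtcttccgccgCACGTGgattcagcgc
NOP10 (lower; chr15:34343112-34343177, minus strand): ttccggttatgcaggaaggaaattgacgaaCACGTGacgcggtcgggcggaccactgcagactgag
UTP18 (lower; chr17:51260427-51260492, plus strand): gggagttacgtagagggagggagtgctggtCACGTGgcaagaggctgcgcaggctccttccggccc
WDR43 (higher; chr2:28894640-28894696, plus strand): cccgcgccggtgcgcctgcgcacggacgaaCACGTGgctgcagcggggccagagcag
PNO1 (higher; chr2:68157867-68157917, plus strand): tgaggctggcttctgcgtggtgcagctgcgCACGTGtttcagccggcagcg
The hexamer lies within 15 bases of the annotated start in FBL, MRTO4, NOP10, WDR43 and PNO1, and 89 bases before it in the UTP18 window shown. NOP10 and UTP18 each hold another copy in the same entry, not shown. Over all tested genes 34.4% were higher by TMM and 34.7% lower, and these shares were not split by the hexamer. By TMM, of the 14 genes with the hexamer 3 were higher, 9 lower and 2 not called (median log2 fold change -0.21). Of the 15 with an entry but no hexamer 2 were higher, 7 lower and 6 not called (median -0.11). The hexamer was thus found both in genes that were higher and in genes that were lower, and the difference between the 2 groups of genes was not tested.

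The RNA polymerase I machinery had a median log2 fold change of 0.068 by TMM, and of 0.30 with library totals alone. RRN3, the initiation factor that couples RNA polymerase I to growth signals, had 1498, 1576 and 1767 counts in the control libraries against 2048, 2283 and 2181 in the knockdown libraries. Its control level of 92.0 ± 11.1 CPM compared with 107.6 ± 4.83 CPM after knockdown (SD over 3 libraries), and the log2 fold change of 0.23 passed the test (standard error 0.0609, edgeR adjusted p = 0.00112). One sh-ctrl library of RRN3, replicate 3 at 104.7 CPM, lay above the lowest sh-KIF11 library at 102.1 CPM, so the groups overlapped. RRN3 has 2 pseudogenes of its own name and overlaps PDXDC1 on the opposite strand, so some of its reads may be shared with them. POLR1A and POLR1B, the 2 largest subunits that form the catalytic centre of the enzyme, were not called by TMM (log2 fold changes 0.11 and 0.028, adjusted p = 0.0667 and 0.67). Both were called higher with library totals alone (0.34 and 0.26) and by limma on log2(FPKM + 1) (0.26 and 0.18) and log2(FPKM + 0.1) (0.29 and 0.19). POLR1A was also called higher with upper-quartile scaling (0.19), with at least 10 counts in every library (0.14), without sh-ctrl replicate 1 (0.15) and without sh-KIF11 replicate 1 (0.16). UBTF, which holds ribosomal gene chromatin open, had 167.2 ± 6.58 CPM in sh-ctrl and 153.7 ± 2.504 CPM in sh-KIF11. It was called lower by TMM (log2 fold change -0.12, adjusted p = 0.0291) but was called higher with library totals alone (0.11, adjusted p = 0.0484) and stood at 0.068, not called, by limma on log2(FPKM + 1). The call of UBTF also ended with upper-quartile scaling (-0.043), with at least 10 counts in every library (-0.096), and without sh-ctrl replicate 1 (-0.11), sh-ctrl replicate 2 (-0.095), sh-KIF11 replicate 1 (-0.12) or sh-KIF11 replicate 2 (-0.11).

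The box C/D and U3 proteins ran from -0.79 to 0.11 by TMM and from -0.56 to 0.34 with library totals alone. FBL encodes fibrillarin, the methyltransferase of the particle, and lies on the minus strand of chromosome 19, bases 39834458 to 39846414 of GRCh38. FBL had 4289, 4443 and 4128 counts in the control libraries against 2892, 2879 and 2733 in the knockdown libraries. All 3 sh-KIF11 libraries lay far below all 3 sh-ctrl libraries, at 140.6 ± 3.08 CPM against 243.8 ± 2.94 CPM. The ratio of the means was 0.577, and the log2 fold change of FBL of -0.79 was the largest in size of the 35 (standard error 0.0489, edgeR adjusted p = 4.6e-18). It ranged from -0.81 to -0.56 over the alternatives.

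NOP56 and NOP58 are the paralogous scaffold proteins that sit beside fibrillarin in each box C/D particle. NOP56 had 8406, 8235 and 8143 counts in the control libraries against 7759, 7791 and 7423 in the knockdown libraries. It fell, with a log2 fold change of -0.31 and a standard error of 0.0472 (adjusted p = 2.92e-07), and it was no longer called with library totals alone (-0.077). NOP58 had 2440, 2494 and 2324 counts in the control libraries against 2904, 3146 and 2940 in the knockdown libraries. It was the one factor of this role above sh-ctrl, at 148.6 ± 3.65 against 137.6 ± 0.701 CPM, with a log2 fold change of 0.11 (adjusted p = 0.0443). Its call ended with DESeq2 (0.11, adjusted p = 0.059), with no low-count filter (0.10, adjusted p = 0.1) and without any one library other than sh-ctrl replicate 3, with values between 0.094 (without sh-KIF11 replicate 2) and 0.13 (without sh-KIF11 replicate 1). RRP9, a U3-specific protein of the same family of particles, was lower by TMM (-0.17, adjusted p = 0.0243) and at 0.063 with library totals alone. It was not called with upper-quartile scaling or with at least 10 counts in every library. Its call also ended without sh-ctrl replicate 1 (-0.14), sh-KIF11 replicate 1 (-0.17) or sh-KIF11 replicate 2 (-0.16).

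In the box H/ACA particle 3 of 4 genes were lower by TMM, beside 34.7% of all tested genes, and the other was not called. NHP2, a small RNA-binding core protein, lies on the minus strand of chromosome 5, bases 178149460 to 178153967 of GRCh38, and overlaps RMND5B on the other strand. NHP2 had 1820, 1764 and 1578 counts in the control libraries against 1481, 1411 and 1346 in the knockdown libraries. Its level was 97.8 ± 4.27 CPM in sh-ctrl and 70.1 ± 3.24 CPM in sh-KIF11, with no overlap, and it changed by -0.48 on the log2 scale (standard error 0.0561, edgeR adjusted p = 6.16e-10). NOP10, the smallest protein of the particle, had 1589, 1727 and 1768 counts against 1598, 1571 and 1539. The counts of NOP10 overlapped while its CPM did not (96.5 ± 7.86 and 77.9 ± 1.88), and the log2 fold change was -0.31 by TMM and -0.078, not called, with library totals alone. NOP10 was also not called by limma on log2(FPKM + 1) or log2(FPKM + 0.1).

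DKC1 encodes dyskerin, the pseudouridine synthase of the particle, which is also part of telomerase. It had 135.3 ± 4.48 CPM in sh-ctrl and 117.7 ± 3.28 CPM in sh-KIF11, with a log2 fold change of -0.20 by TMM (adjusted p = 0.000627) and 0.029 with library totals alone. The call of DKC1 also ended by limma on log2(FPKM + 1) and log2(FPKM + 0.1). GAR1, the protein that helps release the modified RNA, was not called (-0.16, adjusted p = 0.0611), though its libraries did not overlap, and it was called lower without sh-KIF11 replicate 2 (-0.20, adjusted p = 0.0456).

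NPM1 and NCL, among the nucleolar phosphoproteins, were the most abundant factors of the set. NPM1, a nucleolar scaffold and histone chaperone, stood at 559.4 ± 34.1 FPKM (a read level divided by transcript length and library depth) in sh-ctrl and 552.7 ± 7.81 in sh-KIF11. NCL, nucleolin, which binds the nascent ribosomal RNA, stood at 283.2 ± 12.1 and 297.8 ± 1.78 FPKM. Both were above all other factors on this length-scaled level, followed by NOP10 at 186.6 ± 11.9 FPKM in sh-ctrl, and UTP15 was lowest at 5.53 ± 0.299. On the count scale NPM1 was called lower by TMM (-0.16, adjusted p = 0.00422) and stood at 0.07 with library totals alone, and NPM1 was not called there. Its call also ended with upper-quartile scaling and by limma on log2(FPKM + 1) and log2(FPKM + 0.1). NCL was not called by TMM (-0.082, edgeR adjusted p = 0.121), was called higher with library totals alone (0.15, adjusted p = 0.00523) and was called lower by DESeq2 (-0.088, adjusted p = 0.0437). NPM1 has 45 pseudogenes of its own name in GENCODE 29, so its counts are uncertain. NOLC1, a chaperone of small nucleolar ribonucleoproteins, was lower by TMM (-0.26, adjusted p = 8.18e-06) and at -0.03, not called, with totals alone. Limma on log2(FPKM + 1) and log2(FPKM + 0.1) did not call NOLC1 either.

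Small subunit assembly held 5 of the 7 factors called higher by TMM. It held 7 of the 16 called higher with library totals alone, where 6621 of the 12369 tested genes were higher. By TMM 45.5% of its 11 factors were higher and 27.3% lower, beside 34.4% and 34.7% of all tested genes. The 44 other small subunit factors listed below had 13 higher and 20 lower, with a median log2 fold change of -0.083. LTV1, which escorts the pre-40S particle to the cytoplasm, lies on the plus strand of chromosome 6, bases 143843344 to 143863812 of GRCh38. LTV1 had 1465, 1370 and 1285 counts in the control libraries against 1911, 2313 and 2051 in the knockdown libraries. Its level was 78.1 ± 3.53 CPM in sh-ctrl and 103.7 ± 8.25 CPM in sh-KIF11, and every sh-KIF11 library was above every sh-ctrl library. The log2 fold change of 0.41 was the highest of the 35 (standard error 0.0579, edgeR adjusted p = 5.36e-08).

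WDR43 and UTP15 are subunits of UtpA, the first complex to bind the precursor RNA, which also takes part in its transcription. WDR43, on the plus strand of chromosome 2, bases 28894643 to 28948222 of GRCh38, had 3077, 3047 and 2956 counts in the control libraries against 4243, 4706 and 4393 in the knockdown libraries. The change of WDR43 was 0.36 on the log2 scale (standard error 0.0493, edgeR adjusted p = 3.11e-08). UTP15 had 467, 454 and 421 counts in the control libraries against 619, 707 and 623 in the knockdown libraries, which gave 0.34 on the log2 scale (standard error 0.0767, adjusted p = 0.00015). Both had no overlap between the groups. WDR75, another subunit of UtpA, had 1271, 1211 and 1319 counts against 1326, 1347 and 1357 and was not called (-0.11, adjusted p = 0.0898) except without sh-ctrl replicate 2 (-0.16, adjusted p = 0.0441).

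The other 2 factors of this role that were higher act later. PNO1, which guards the immature end of the 18S RNA, had 1189, 1173 and 1232 counts in the control libraries against 1532, 1661 and 1530 in the knockdown libraries (log2 fold change 0.20, adjusted p = 0.00304). RRP12, needed for export of the particle, had 1838, 1724 and 1605 against 2182, 2279 and 2251 (0.18, adjusted p = 0.00258). TSR1, a GTPase-like protein of late pre-40S particles, stood at 130.0 ± 1.89 and 129.7 ± 0.794 CPM, a log2 difference of -0.003 by TMM (adjusted p = 0.956), and was called higher with library totals alone (0.23). UTP20, a very large scaffold protein, was not called by TMM (0.034, adjusted p = 0.588) and was called higher with library totals alone (0.27, adjusted p = 2.78e-05).

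The 3 factors of this role that were lower by TMM were UTP18, NOP14 and BYSL. UTP18, of the UtpB complex, had 1686, 1632 and 1888 counts in the control libraries against 1641, 1586 and 1508 in the knockdown libraries (-0.34, adjusted p = 6.54e-06). NOP14, which binds the precursor at an early step, had 2961, 2987 and 2555 against 2521, 2624 and 2575 (-0.34, adjusted p = 2.72e-07). BYSL, bystin, present from early to late particles, had 761, 763 and 689 against 689, 757 and 688 (-0.25, adjusted p = 0.00213). The raw counts of all 3 overlapped between the groups while their CPM did not, and with library totals alone none of the 3 was called (-0.11, -0.10 and -0.019). UTP18 and BYSL were also not called by limma on log2(FPKM + 1) or log2(FPKM + 0.1). Within small subunit assembly, then, the values by TMM ran from -0.34 to 0.41 around a median of 0.034, which was 0.27 with library totals alone.

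In large subunit assembly 6 of 9 factors were lower by TMM (66.7%, beside 34.7% of all tested genes) and the other 3 were not called. The 54 other large subunit factors listed below did not share this, with 17 higher, 16 lower and a median log2 fold change of 0. With library totals alone, which shift all genes alike, 2 of the 9 were lower, 3 higher and 4 not called. Of the 12369 tested genes 2373 were lower and 6621 higher under that scaling. The median of the role was below 0 under both scalings, at -0.30 by TMM and -0.067 with totals alone, where the medians of all tested genes were 0.004 and 0.24. MRTO4, which holds the place of the stalk protein P0 on the pre-60S particle, lies on the plus strand of chromosome 1, bases 19251539 to 19260128 of GRCh38, and overlaps EMC1 on the other strand. MRTO4 had 3080, 3021 and 2810 counts in the control libraries against 2398, 2653 and 2394 in the knockdown libraries, and the groups did not overlap. Its level was 168.9 ± 3.35 CPM in sh-ctrl and 123.0 ± 4.55 CPM in sh-KIF11, and the difference was -0.46 on the log2 scale (standard error 0.0504, edgeR adjusted p = 1.43e-10).

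PES1, BOP1 and WDR12 form the PeBoW complex, which is needed to process the 5.8S and 28S precursors. BOP1 had 2312, 2126 and 1943 counts in the control libraries against 1794, 1895 and 1809 in the knockdown libraries (-0.41, standard error 0.0538, adjusted p = 9.25e-09). PES1 had 2714, 2756 and 2429 against 2347, 2534 and 2366 (-0.32, adjusted p = 4.87e-07). It was not called with library totals alone (-0.09), nor by limma on log2(FPKM + 1) or log2(FPKM + 0.1). WDR12 had 1929, 1950 and 1956 against 2050, 2183 and 2186, was not called by TMM (-0.06, adjusted p = 0.314) and was called higher with totals alone (0.17).

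NOP16, an early pre-60S factor, had 926, 955 and 884 counts in the control libraries against 829, 815 and 833 in the knockdown libraries (-0.36, adjusted p = 1.03e-05). NIP7, which takes part in 27S processing in yeast, had 1040, 963 and 1015 against 925, 999 and 894 (-0.30, adjusted p = 0.00012). With library totals alone neither NOP16 (-0.12, adjusted p = 0.0911) nor NIP7 (-0.067, adjusted p = 0.364) was called. NOP2, a cytosine methyltransferase of the 28S RNA, was lower by TMM (-0.16, adjusted p = 0.0165), although its groups overlapped in CPM, and stood at 0.075 with library totals alone. The call of NOP2 ended with upper-quartile scaling, and without sh-ctrl replicate 1 (-0.084), sh-ctrl replicate 2 (-0.14) or sh-KIF11 replicate 3 (-0.14). RRP1B and RRS1, a nucleolar processing factor and a factor that brings in the 5S particle, were not called by TMM (-0.029 and -0.02, adjusted p = 0.621 and 0.809). Both were called higher with library totals alone (0.20 and 0.21).

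**Figure D2:**
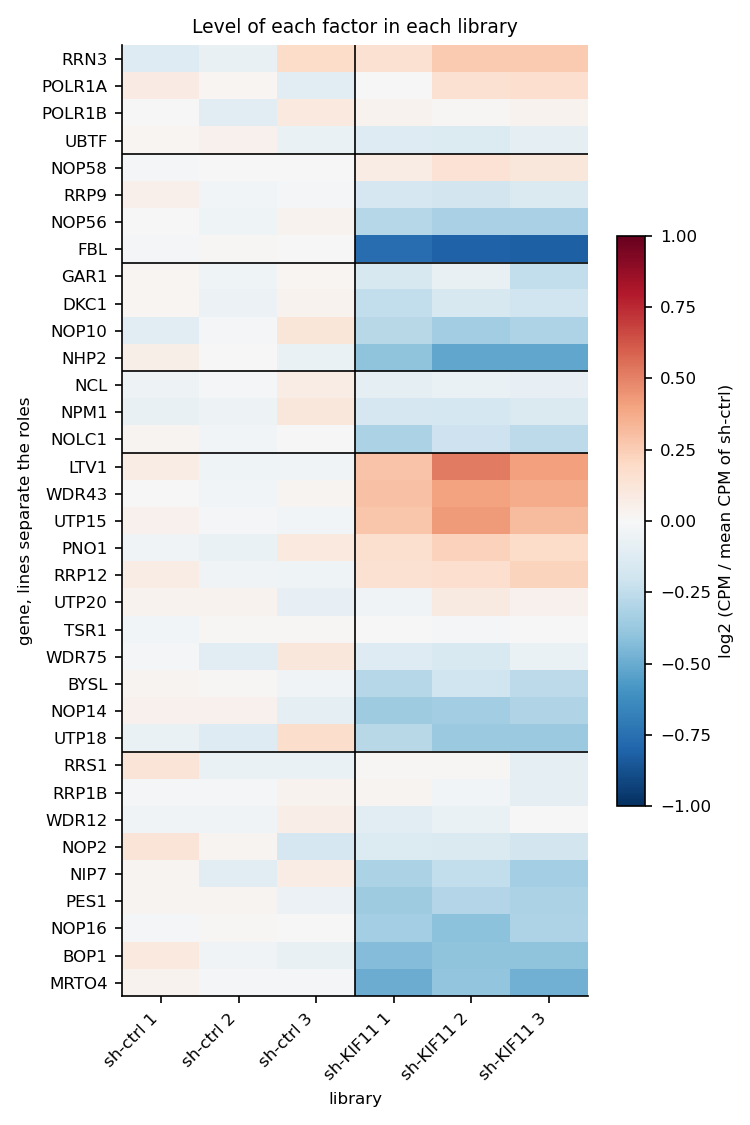
Level of each factor (rows, grouped by role) in each of the 6 libraries (columns), as log2 of its CPM over the mean CPM of sh-ctrl, with blue for lower and red for higher. FBL is the darkest blue row in all 3 sh-KIF11 libraries, LTV1, WDR43 and UTP15 are red in all 3, and the sh-ctrl libraries of RRN3 and UTP18 differ visibly among themselves; the colours move towards red with library totals alone.

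Count ratios of partners in the same library do not depend on how libraries are scaled. Over 13 such ratios, taken within complexes, 9 did not overlap between the groups, where 71.2% of all tested genes did not overlap singly. No such share was computed for other pairs of genes. In the box C/D particle, PeBoW and UtpA all pairs among 3 genes were taken, so the 13 ratios are not independent of each other. With 3 libraries against 3 the smallest two-sided p of an exact permutation test is 0.1, and those 9 ratios all reached it (0.144 after Benjamini-Hochberg adjustment over the 13), so no single ratio can pass 0.05 in this design. The NOP58 to FBL ratio was 0.569, 0.561 and 0.563 in the control libraries against 1.004, 1.093 and 1.076 in the knockdown libraries. Every knockdown library lay above every control library, and the ratio differed by 0.91 on the log2 scale in counts and by 0.79 in FPKM. Per length NOP58 stood below FBL in both groups, at an FPKM ratio of 0.359 in sh-ctrl and 0.620 in sh-KIF11. The NOP56 to FBL ratio was 1.93 ± 0.0654 in the controls and 2.70 ± 0.0170 after knockdown (SD over 3 libraries), and the NOP58 to NOP56 ratio 0.293 ± 0.00901 and 0.391 ± 0.0153.

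Outside the box C/D particle the largest shift was 0.47 on the log2 scale, for WDR43 to WDR75. In UtpA the WDR43 to WDR75 ratio was 2.39 ± 0.140 in sh-ctrl and 3.31 ± 0.160 in sh-KIF11, and the UTP15 to WDR75 ratio 0.354 ± 0.0302 and 0.484 ± 0.0360. The WDR43 to UTP15 ratio overlapped between the groups, at 6.77 ± 0.223 and 6.85 ± 0.198 (exact permutation test, two-sided, p = 0.7). In PeBoW the WDR12 to BOP1 ratio was 0.919 ± 0.0862 and 1.17 ± 0.0356, WDR12 to PES1 was 0.741 ± 0.0555 and 0.886 ± 0.0331, and PES1 to BOP1, whose shift was the smallest of the 9 without overlap, was 1.24 ± 0.0618 and 1.32 ± 0.0168. In the box H/ACA particle DKC1 to NHP2 was 1.39 ± 0.0817 and 1.68 ± 0.119. The ratios of DKC1 to NOP10 (exact p = 0.3), of DKC1 to GAR1 (exact p = 0.4) and of POLR1A to POLR1B (exact p = 0.6) overlapped between the groups.

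**Figure D3:**
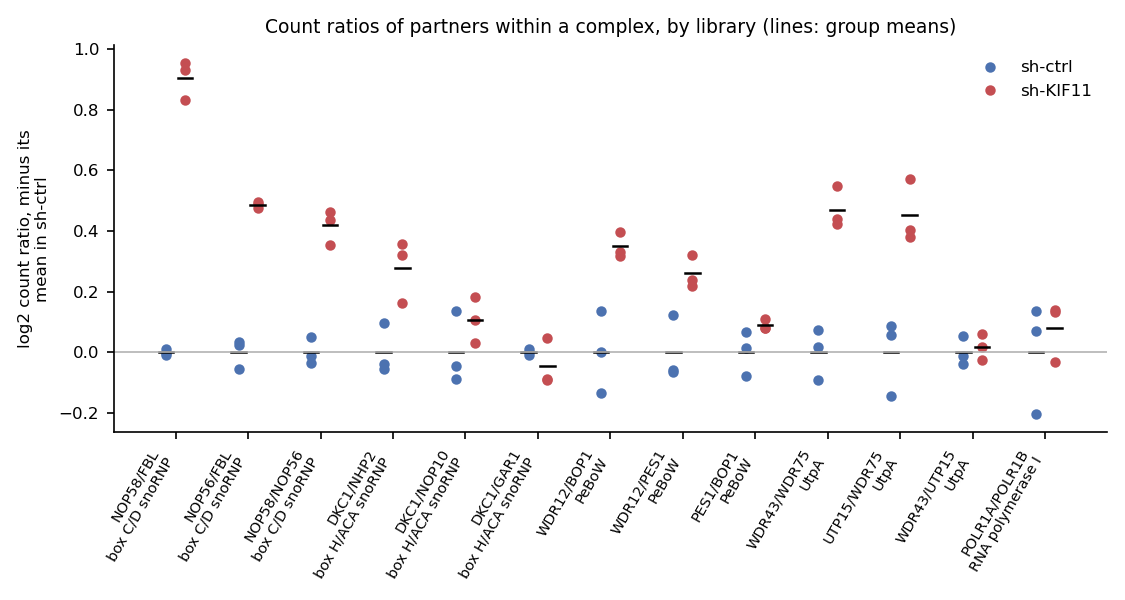
Log2 ratio of the counts of 2 partners in each library, minus the mean of that ratio in sh-ctrl (y axis), for 13 pairs within complexes (x axis); points are libraries and lines are group means. The NOP58 to FBL ratio moved most, by 0.91, and the WDR43 to UTP15, POLR1A to POLR1B, DKC1 to GAR1 and DKC1 to NOP10 ratios overlap between the groups.

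A further list of 119 ribosome biogenesis genes outside the 35, all tested, gives the rest of the pathway. Of these 80 were called (67.2%, beside 69.1% of all tested genes), 36 higher and 44 lower, with a median log2 fold change of -0.064. With library totals alone 65 were higher and 20 lower, beside 6621 and 2373 of the 12369 tested genes. The KEGG term for ribosome biogenesis in the deposited annotation, without the factors above, had 62 tested genes, 17 higher and 21 lower, and a median of -0.053. By part of the pathway, other RNA polymerase I genes had 5 higher and 3 lower of 11, other snoRNP genes 1 and 5 of 10, other small subunit factors 13 and 20 of 44, and other large subunit factors 17 and 16 of 54.

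The largest positive values in this list were those of ESF1, KRR1 and SDAD1. ESF1, a nucleolar factor of 18S processing, had 1000, 1086 and 904 counts in the control libraries against 1701, 2032 and 1910 in the knockdown libraries (log2 fold change 0.72, adjusted p = 1.2e-13). KRR1, a pre-40S assembly factor, was at 0.70 and SDAD1, a pre-60S export factor, at 0.58. The largest negative values were those of RRP7A (-0.84), an early 40S factor, ZNRD1 (-0.83), a small RNA polymerase I subunit also named POLR1H, and WDR18 (-0.77), which acts on the pre-60S particle. RRP7A had 1653, 1551 and 1505 counts in the control libraries against 1003, 1007 and 1009 in the knockdown libraries (adjusted p = 2.32e-16). Factors of the small subunit (KRR1 and RRP7A) and of the large subunit (SDAD1 and WDR18) thus stood at both ends of the list.

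The mRNAs of the ribosomal proteins themselves, the products that these factors assemble, are given side by side. Of 79 cytosolic ribosomal protein genes 75 were lower in sh-KIF11, 1 was higher and 3 were not called, with a median log2 fold change of -0.49. RPL36A was the higher one (0.70, from 32 to 45 counts in sh-ctrl and 66 to 86 in sh-KIF11), and RPS24, RPL7 and RPL17 were not called. In the FPKM table RPL36A was not higher, at 4.73 ± 0.650 in sh-ctrl and 4.54 ± 0.232 in sh-KIF11, and RPL17 had 112 to 145 counts beside 336.7 to 408.8 FPKM, so the counts of both are uncertain. RPS10, among the 75 lower (-0.30, edgeR adjusted p = 0.0493), had 121 to 145 counts beside 279.0 to 391.8 FPKM, so its counts are uncertain too. Its FPKM was also lower, at 379.7 ± 17.7 in sh-ctrl and 288.7 ± 9.94 in sh-KIF11. The ribosomal protein genes given by name here were picked after their values were seen. With library totals alone 3 ribosomal protein genes were higher and 65 lower, beside 6621 and 2373 of the 12369 tested genes. The summed CPM of the 35 factors over that of the ribosomal proteins, which does not depend on scaling, was 0.1056 to 0.1074 in sh-ctrl and 0.1324 to 0.139 in sh-KIF11, with no overlap. The difference between the lists was not tested.

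**Figure D4:**
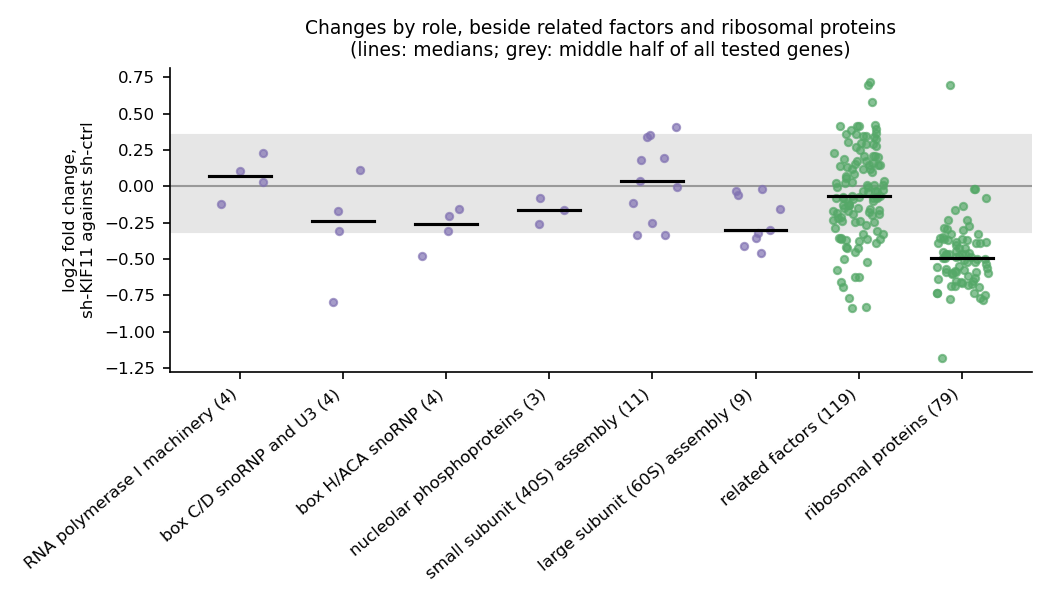
Log2 fold change by TMM (y axis, sh-KIF11 against sh-ctrl) of the genes of each role, of 119 related factors and of 79 ribosomal proteins (x axis, number of genes in brackets); points are genes, lines are medians, and the grey band is the interquartile range of all tested genes, from -0.31 to 0.36. Most factors lie inside the band or just below it, and the ribosomal proteins lie around -0.49; with library totals alone the median of all tested genes moves up to 0.24.

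Transcript length moved with these values. The longest coding transcript (GENCODE 29) had a median of 2701 bases over the 35 factors, 2982 over the related factors, 1171 over the ribosomal proteins and 3365 over the tested genes with a length. Across all 12197 tested genes with a length, Spearman's rho between length and log2 fold change was 0.29, and across the 35 factors it was 0.49. These are correlations across genes, which share the same 6 libraries and are not independent replicates. In 5 length classes of equal size, from the shortest to the longest, the median log2 fold change was -0.25, -0.10, 0.003, 0.11 and 0.20 over all tested genes. In the same classes the medians of the factors were -0.24 (10 genes), -0.30 (9), -0.18 (6), -0.003 (7) and 0.034 (3). FBL, with 1160 bases, was below the median of its length class, and LTV1, with 1847 bases, was above it. The part of length in the results was not tested.

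**Figure D5:**
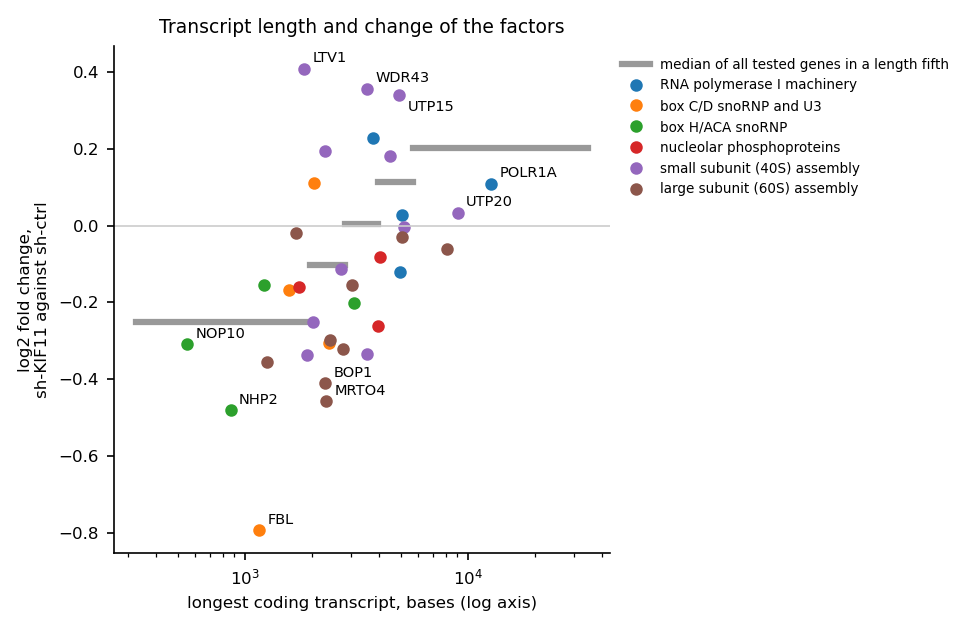
Log2 fold change by TMM (y axis) of each of the 35 factors against the length of its longest coding transcript in bases (x axis, log scale), coloured by role; grey bars are the medians of all tested genes in 5 length classes, from -0.25 in the shortest to 0.20 in the longest. FBL and NHP2 lie below the grey bar of their class, and LTV1 lies above it.

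The gene structures carry further facts that bear on the counts. The 35 genes are spread over 17 chromosomes. Of the 35, 6 (NOP56, NOP58, NCL, WDR43, DKC1 and TSR1) contain 19 genes of small nucleolar RNAs, 5 of them in NOP56, 4 in NOP58 and 3 each in NCL and WDR43. Of these 6 hosts 2 were higher by TMM, 2 lower and 2 not called (median -0.042). Of the other 29 factors 5 were higher, 16 lower and 8 not called (median -0.16), beside 34.4% higher and 34.7% lower of all tested genes. The difference between hosts and other factors was not tested. A coding gene on the opposite strand overlaps 11 of the 35, and 8 have pseudogenes of their own name. Among the 10 factors that held under every setting, NHP2 and RRN3 have 2 such pseudogenes each and LTV1 has 1, so their counts may be affected. Of the same 10, NHP2, MRTO4, UTP15, RRN3, PNO1 and BOP1 overlap a coding gene of the opposite strand. FBL and WDR43 overlap no coding or long non-coding gene there, and other gene types were not searched. RRP12 overlaps a long non-coding gene of the opposite strand, and LTV1 overlaps other coding annotations on its own strand. The libraries were stranded, but the strand setting of the counting is not given in the sources used here, so reads of overlapping genes may be shared.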

How the data were processed

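Poly(A) RNA of 6 HepG2 samples (3 sh-ctrl, 3 sh-KIF11) was sequenced from stranded libraries. The authors deposited raw read counts per gene, without normalization, and FPKM values of the same genes, which divide by transcript length and depth. The submitters' processing notes name bcl2fastq 1.8.4, Trimmomatic, HISAT2 2.1.0, HTSeq 0.9.1, Cufflinks 2.2.1 and DESeq with GRCh38. Groups came from the sample titles. The table columns named only shRNA were taken as sh-KIF11, since the labels list no other shRNA.

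Counts were fitted in R 4.3.3 with edgeR 4.0.16 (filterByExpr, TMM, quasi-likelihood test with the group as the only term), which kept 12369 genes and left out 7661. P-values were two-sided and adjusted by Benjamini-Hochberg over all tested genes, with a threshold of 0.05. CPM is scaled by TMM, and a count of 3 corresponds to 0.145 to 0.178 CPM. The biological coefficient of variation was 4.87%. Each library counted as 1 replicate, since no pair agreed within counting error (chi-square over its degrees of freedom 2.62 to 7.83 within groups). Alternatives were RLE, upper-quartile and library-total scaling, other low-count filters, DESeq2 1.42.0, limma 3.58.1 on log2(FPKM + 1) and log2(FPKM + 0.1), a replicate block, each library left out and a threshold of 0.01. The fits were tested on simulated data.

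The factors and all lists were chosen with earlier results of these data known. The genes named are all 35 factors, KIF11, and of the related factors the 3 highest and 3 lowest that passed the test without overlap. Gene positions and lengths are from GENCODE 29, and promoter sequences from RefSeq.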

Additional observations from a re-analysis of the deposited data

How the results depend on the processing

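The values depend most on scaling. With library totals alone 6621 of all tested genes were higher and 2373 lower, 16 factors were higher and 4 lower, and 65 related factors were higher and 20 lower. Of the ribosomal proteins 3 were higher and 65 lower under that scaling, beside 1 and 75 by TMM. Limma on log2(FPKM + 1) and on log2(FPKM + 0.1) gave 2596 and 2597 of all tested genes lower, 12 factors higher and 8 lower under both, and 21 related factors lower under both. The median of the factors was -0.077 with upper-quartile scaling, 0.075 with library totals, -0.13 with at least 10 counts in every library, 0.024 and 0.026 with the FPKM values, and between -0.16 and -0.12 with 1 library left out, the last without sh-ctrl replicate 1. Its distance to the median of all tested genes was below 0 under all alternatives run. RLE, upper-quartile and library-total scaling move all genes by nearly the same amount by construction, so that distance could hardly change under them. For the other settings the cause was not tested.

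Direction turned for 14 factors in 40 single values. With library totals alone the values were 0.11 (UBTF), 0.063 (RRP9), 0.029 (DKC1), 0.075 (GAR1 and NOP2), 0.15 (NCL), 0.07 (NPM1), 0.12 (WDR75), 0.23 (TSR1), 0.17 (WDR12), 0.20 (RRP1B) and 0.21 (RRS1). With log2(FPKM + 1) and log2(FPKM + 0.1) they were 0.068 and 0.072 (UBTF), 0.041 and 0.043 (RRP9), 0.073 and 0.073 (NCL), 0.15 and 0.16 (TSR1), 0.092 and 0.095 (WDR12), 0.024 and 0.026 (NOP2), 0.12 and 0.12 (RRP1B) and 0.17 and 0.18 (RRS1). Upper-quartile scaling gave 0.075 (TSR1), 0.019 (WDR12), 0.05 (RRP1B) and 0.059 (RRS1), and at least 10 counts in every library gave 0.023 (TSR1) and 0.006 (RRS1). With 1 library left out POLR1B ranged from -0.022 to 0.078, UTP20 from -0.006 to 0.066, TSR1 from -0.011 to 0.008 and RRS1 from -0.055 to 0.054. Of the other values of the factors, 455 kept direction and call, 50 lost the call and 15 gained it.

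Libraries with the same replicate number showed no shared deviation (correlations of deviations 0.03, -0.018 and -0.003). These values cannot show whether the libraries were prepared in pairs. A fit with the replicate block called 26 factors, 8 higher and 18 lower, with POLR1A (adjusted p = 0.0423) gained. Every factor had at least 421 counts in each library, and 3 libraries a group set the precision.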
